A study of Drosophila melanogaster with 27 samples.

Results

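The proteasome subunit genes of Drosophila melanogaster were followed through 9 conditions of the developing eye. A gene was taken as a member when its current symbol begins with Prosalpha, Prosbeta, Rpn or Rpt followed by a number, and it was matched to the arrays by its CG number. The rule found 48 genes, of which 46 had a probe, among 11510 named genes with a probe in all. With several probes for a gene the brightest one was used. Of the 48 genes, 32 encode the constitutive subunits of the particle and 16 are copies marked by a T or an R at the end of the symbol.

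The study asked which transcripts distinguish undifferentiated from differentiating cells on the 2 sides of the morphogenetic furrow, the front that crosses the eye disc of the larva and behind which photoreceptors form. Each of 27 glass arrays carried a test RNA and a common reference RNA in the dyes Cy5 and Cy3, and every value is a log2 ratio of test over reference. The reference came from whole eye-antennal discs of wandering larvae of the strain w1118 in the third instar, a strain that lacks eye pigment and otherwise forms normal eyes. The test RNA passed through 2 rounds of T7 amplification and the reference through 1, so a ratio against the reference also holds any effect of the extra round and, tested against 0, leaves out the spread of the reference itself.

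The posterior fragments (4 arrays) were cut from w1118 eye discs behind the furrow. The other test RNAs came from eye-antennal discs of mutant larvae, of the same stage. Discs of roDom (rough Dominant) were taken from homozygotes (3 arrays) and heterozygotes (2). E(roDom)2033, an enhancer of roDom that the labels call uncharacterized, was likewise taken as homozygotes (3) and heterozygotes (2). Discs of ato1 (3), an allele of the proneural gene atonal, and of hh1 (4), an allele of hedgehog, came from homozygotes. Discs of roX63 (3), another allele of rough, and of Su(roDom)519 (3), a suppressor of roDom, are listed without zygosity. The labels describe a furrow that halts in roDom, E(roDom)2033, hh1 and ato1 discs, called stop-furrow discs here when homozygous (13 arrays). They describe extra R8 cells, the founder photoreceptors, for Su(roDom)519 and roX63 (6 arrays). The whole discs hold the antennal part and the anterior eye field, which the fragments lack.

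The proteasome degrades proteins tagged with ubiquitin. Its core particle is a barrel of outer alpha rings and inner beta rings. The alpha subunits form the gated entrance, and the subunits beta1, beta2 and beta5 carry the proteolytic sites. A regulatory particle caps the barrel. Its base holds the Rpt ATPases, which unfold substrates and open the gate, together with the large Rpn1 and Rpn2 and the ubiquitin receptors Rpn10 and Rpn13, and its lid holds the other Rpn subunits, including the deubiquitinating enzyme Rpn11. The subunits are needed in fixed proportions in every cell, and several of the fly genes have copies that are used in the testis.

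Between 48.6% (posterior fragments, replicate 1) and 95.4% (posterior fragments, replicate 4) of all probes were detected on an array, meaning a net signal above 2 background SDs in at least 1 channel. The precision is limited by the 2 to 4 arrays in each condition, which the series description calls independent replicates. Labels conflict for 3 arrays. The titles of E(roDom)2033 homozygote replicates 2 and 3, which were followed, say homozygous, whereas their characteristics say heterozygous. For roDom homozygote replicate 2 the labels and the file header assign the dyes in opposite ways, and the labels were followed. Turned in that way its ratios correlated with those of the other replicates at r = 0.514 and 0.293 across probes. Markers of other tissues varied between conditions: the median fitted log2 change of 6 muscle genes ran from 0.23 to 1.31, that of 6 fat body genes from 0.04 to 1.21 (Fbp1 and Lsp1alpha near background), and that of 4 salivary gland genes from -3.12 to -0.16. Medians of 5 photoreceptor genes ran from -2.05 to 0.37, and those of 5 measured testis genes from -0.03 to 0.10, with vas, dj and betaTub85D near background. Their part in the changes below was not tested. In whole tissue fewer cells of a type and less RNA per cell cannot be told apart.

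All 32 constitutive subunits gave a clear signal. Each was detected on 26 or 27 of the 27 arrays, and each exceeded the 95th percentile of the spots named Adeno, which carry no fly gene name, on 26 or 27 arrays. The copies were near background. Of 14 copies with a probe, 13 passed the lenient detection limit of 14 arrays, but their median number of arrays above that percentile was 5.5. Prosalpha6T and Prosbeta5R1 exceeded it on 22 arrays each and Rpt3R on 16, whereas Prosalpha3T, Prosalpha4T1 and Prosbeta4R1 did so on 0 arrays. Prosalpha1R and Prosbeta5R2 had no probe of their own. Prosalpha1R is a near-copy of Prosalpha1 that the gene table lists close to it, so the probes of Prosalpha1 may measure both. This was not tested.

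As a set the constitutive subunits stayed close to the reference in most conditions. The median fitted log2 change over the 32 genes was -0.01 in posterior fragments, 0.02 in roDom homozygotes and 0.02 in roDom heterozygotes. It was -0.07 in ato1, 0.13 in hh1, -0.15 in roX63, 0.10 in Su(roDom)519 and 0.13 in E(roDom)2033 heterozygotes. The highest of these medians was that of the E(roDom)2033 homozygotes, at 0.26 with 24 of 32 subunits above 0. Over all 11249 detected genes the median lay at 0.01 in the same homozygotes, held near 0 by the loess normalisation of each array. Their subunit median was above 0 on every array, at 0.28, 0.24 and 0.38. That of the heterozygotes was at 0.01 and 0.30 (SD 0.21, n = 2). In the remaining conditions the SD over arrays ran from 0.11 in roDom homozygotes to 0.37 in roX63. The subunit median ran from -0.34 to 0.14 in posterior fragments, from -0.25 to 0.40 in hh1 and from -0.48 to 0.26 in roX63, where replicate 3 was the low one. The mean over arrays was 0.30 ± 0.07 (SD, n = 3) in the E(roDom)2033 homozygotes. In every other condition the mean was smaller in size than its SD. It was 0.10 ± 0.27 (n = 4) in hh1, -0.08 ± 0.37 (n = 3) in roX63 and 0.16 ± 0.17 (n = 3) in Su(roDom)519.

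**Figure D1:**
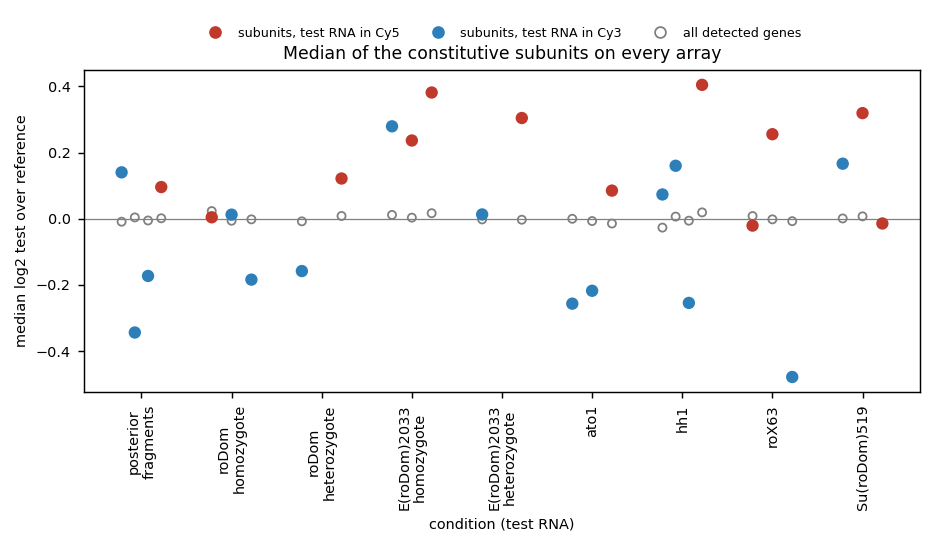
Median log2 test over reference of the 32 constitutive proteasome subunits on each of the 27 arrays, by condition (filled points, red with the test RNA in Cy5 and blue with it in Cy3), beside the median of all detected genes on the same array (open circles). The subunit medians run from -0.48 (roX63) to 0.40 (hh1), while the medians of all detected genes stay near 0, where the normalisation holds them.

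The subunit genes moved with the dye. Arrays with the test RNA in Cy5 (12 arrays) gave higher ratios for them than arrays with it in Cy3 (15 arrays), also within conditions. The mean subunit median was higher on the Cy5 arrays in 8 of 9 conditions, the exception being Su(roDom)519, and the gap was widest in roX63, at 0.12 on the Cy5 arrays against -0.48 on the single Cy3 array. Over all arrays the fitted difference of Cy5 minus Cy3 had a median of 0.27 over the 32 subunits, with 27 above 0. Over all detected genes its median was 0.02, likewise held near 0 by the normalisation. The fitted difference passed an adjusted p of 0.05 for 14 of the 32 subunits, 13 of them higher in Cy5, beside 23.6% of all probes in either direction and 10.9% higher in Cy5. The beta ring held 5 of these, among them Prosbeta7 (0.52, adjusted p = 0.00039) and Prosbeta3 (0.50, adjusted p = 0.0022). The lid subunit Rpn6 was the exception, higher in Cy3 (-0.31, adjusted p = 0.011). All fitted values below are corrected for the dye, whereas values of single arrays are not.

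**Figure D2:**
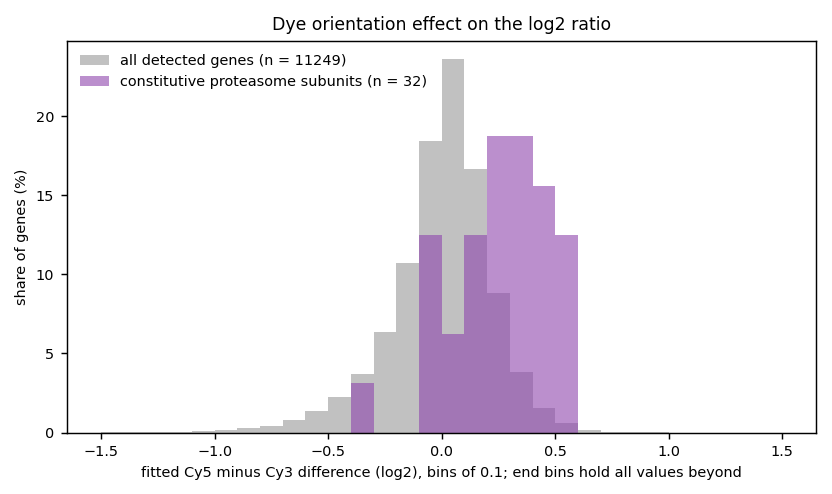
Share of genes (%) by their fitted difference between arrays with the test RNA in Cy5 and in Cy3 (log2), for 11249 detected genes (grey) and the 32 constitutive subunits (purple). The subunits lie to the right, with a median of 0.27 against 0.02.

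A moderated F-test over the 9 conditions, in which the reference and the extra amplification round cancel, was passed by 8 of the 46 members (17.4%), beside 13.8% of all probes. A gene is said to have passed, or to have changed, at an adjusted p under 0.05. The 8 genes were Rpt5 (adjusted p = 5.7e-06), Prosalpha1 (7.7e-05), Rpn6 (0.0037), Prosalpha6 (0.019), Prosbeta1 (0.03), Rpt4 (0.034), Rpn5 (0.037) and Rpn12R (0.047). Thus 7 of the 32 constitutive subunits and 1 of the 14 copies differed between conditions, and they belong to the alpha ring, the beta ring, the base and the lid alike. The share of the members is close to the background. With a fixed block for scanning day the F-test of Rpt4 (adjusted p = 0.23), Rpn5 (0.33), Rpn6 (0.7) and Rpn12R (0.076) did not pass, and without E(roDom)2033 heterozygote replicate 1 neither Prosalpha6 (0.064) nor Prosbeta1 did. The count fell to 4 without Su(roDom)519 replicate 1 or posterior fragments replicate 4. What distinguishes single members is the size and pattern of their changes: the fitted values of Rpt5 spanned 1.73 log2 units between its lowest and highest condition, those of Prosalpha6 1.52, of Prosalpha1 1.26 and of Prosbeta1 1.09.

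Against the reference, 12 members changed in at least 1 condition, 31 changes in all, and 34 members changed in none. In posterior fragments 1 of 46 members changed, to a lower value, beside 4.73% of all probes and 1.98% lower. In roDom homozygotes 0 of 46 did in limma, beside 3.70% of all probes. There 1 of the 32 constitutive subunits and 1 of the 14 copies had an unadjusted p under 0.05, beside 3185 of all 16492 probes. In roDom heterozygotes 2 members changed, beside 5.47%. The E(roDom)2033 homozygotes had 6 of 46, all higher, beside 13.7% of all probes in either direction and 7.31% higher. With replicates 2 and 3 read as heterozygotes 1 of these passed, Prosalpha1. Their heterozygotes had 5 (10.9% of members, beside 5.20%). In ato1 3 members changed, beside 10.7%, and in hh1 4, beside 5.94%. In roX63 7 changed, 2 higher and 5 lower, beside 13.5% of all probes, 6.13% higher and 7.41% lower. In Su(roDom)519 3 changed, all higher, beside 4.70% and 2.55% higher. As shares of the 46 members these counts were 15.2% in roX63, 8.70% in hh1 and 6.52% in Su(roDom)519, slightly above the share of all probes in either direction. They were 6.52% in ato1, 4.35% in roDom heterozygotes and 2.17% in posterior fragments, below it. Among detected genes alone the order in roX63 was the reverse, with 15.6% of members and 15.9% of all genes. These shares differ by few genes and were not tested against each other. These comparisons share the reference RNA. Each rests on few arrays, and leaving out single arrays changed the counts, from 6 to 1 in E(roDom)2033 homozygotes without replicate 1 or 3 and to 11 without replicate 2, from 7 to 2 in roX63 without replicate 3, from 4 to 1 in hh1 without replicate 2 or 4, and from 5 to 0 in E(roDom)2033 heterozygotes without replicate 1.

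**Figure D3:**
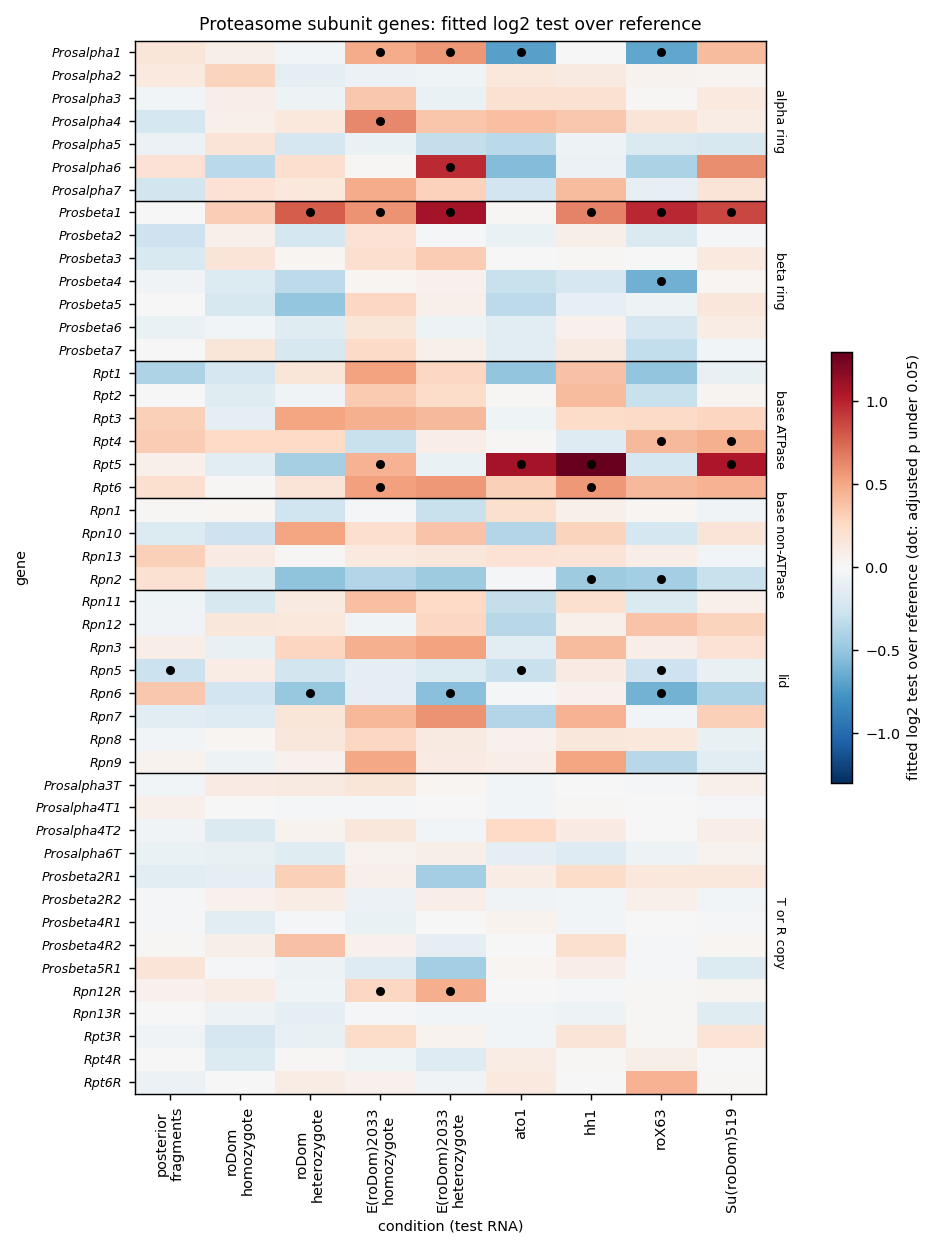
Fitted log2 test over reference of the 46 members with a probe (rows, grouped by their place in the particle) in the 9 conditions (columns), on a colour scale symmetric about 0 (blue below, red above) that ends at 1.30, with a dot where the adjusted p was under 0.05. Rpt5 stands out in ato1 (1.08), hh1 (1.30) and Su(roDom)519 (1.05), Prosbeta1 is above 0 in nearly all mutants, and most of the copies in the lowest block are pale.

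In the alpha ring, Prosalpha1, which encodes one of the 7 alpha subunits, had the lowest adjusted p in the F-test. It was at -1.12, -0.72 and -0.39 on the 3 ato1 arrays and at -0.57, -0.40 and -0.94 on the 3 roX63 arrays. On the E(roDom)2033 homozygote arrays it was at 0.74, 0.45 and 0.36 and on those of the heterozygotes at 0.49 and 0.63. All 6 arrays of ato1 and roX63 lay below 0. These groups were picked by the same values, so the gap between them is not a test. Prosalpha1 fell by 0.71 ± 0.12 in ato1 (SE, n = 3 arrays, adjusted p = 0.00042), to 61.3% of the reference, and by 0.67 ± 0.12 in roX63 (adjusted p = 0.00074). It rose by 0.48 ± 0.12 in E(roDom)2033 homozygotes (adjusted p = 0.0095) and by 0.56 ± 0.14 in their heterozygotes (adjusted p = 0.027). A second probe of the gene gave like values, -0.92 in ato1, -0.71 in roX63, 0.46 and 0.62, and it also passed in Su(roDom)519 (0.49, adjusted p = 0.0073). A fixed block for scanning day left -0.64 in ato1 (adjusted p = 0.0034) and -0.73 in roX63 (adjusted p = 0.067). Under it neither rise passed, at 0.55 in the homozygotes (adjusted p = 0.12) and 0.48 in the heterozygotes (adjusted p = 0.24). Without the dye term the rise in the heterozygotes did not pass either (adjusted p = 0.069). The value in the homozygotes without replicate 1 was 0.26, and that call was lost, as was the heterozygotes' call without either array. Of the 10 nearest measured genes of Prosalpha1, 3 rose and 1 fell in the homozygotes, and 1 fell in the heterozygotes. The risers were puml (0.58, adjusted p = 0.0065), the adjacent phr (0.69, adjusted p = 0.0097) and CG12822 (0.73, adjusted p = 0.012). In ato1 1 rose and 1 fell, and in roX63 1 fell. A link between these genes was not tested.

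Prosalpha6, another alpha subunit, was at 1.14 and 0.79 on the E(roDom)2033 heterozygote arrays, above all arrays of the homozygotes (-0.08, 0.20 and 0.17). It was at -0.44, -0.90 and -0.57 in ato1 and at -0.37, -0.55 and -0.38 in roDom homozygotes, all below 0. In roX63 the arrays disagreed, at -0.02, 0.43 and -1.41. It changed only in the heterozygotes among the tests against the reference, by 0.96 ± 0.25 (n = 2, adjusted p = 0.028), or 1.95-fold. With homozygote replicates 2 and 3 read as heterozygotes, as their characteristics have it, the value of 0.47 missed the threshold (adjusted p = 0.2), as did the F-test of Prosalpha6 (adjusted p = 0.13). Without heterozygote replicate 1 the value was 0.52 and did not pass, without replicate 2 it was 1.41, and scanning day as a fixed block gave 1.44 (adjusted p = 0.013). Prosalpha4 rose in the E(roDom)2033 homozygotes, with arrays at 0.71, 0.35 and 0.84 (0.63 ± 0.14, n = 3, adjusted p = 0.0042). That call was lost without replicate 1 or 3, and under that block (0.40, adjusted p = 0.33). The other 4 alpha genes, Prosalpha2, Prosalpha3, Prosalpha5 and Prosalpha7, passed in no condition.

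In the beta ring, Prosbeta1, which carries the caspase-like site, was the member with the most changes. It rose in 6 of the 9 conditions and its ratio was above 0 on 23 of 27 arrays. The E(roDom)2033 heterozygote arrays were at 1.19 and 0.98, the roX63 arrays at 1.03, 1.63 and 0.39, and the Su(roDom)519 arrays at 0.76, 1.38 and 0.60. In hh1 the values were 0.75, 0.76, 0.05 and 0.74, with replicate 3 well below the others. The posterior fragments, at 0.02, -0.36, -0.24 and 0.31, and ato1, at -0.10, -0.28 and 0.29, lay below all arrays of the E(roDom)2033 heterozygotes and did not pass. The fitted rise was 1.08 ± 0.23 in E(roDom)2033 heterozygotes (n = 2, adjusted p = 0.01), 0.97 ± 0.19 in roX63 (n = 3, adjusted p = 0.0014) and 0.87 ± 0.19 in Su(roDom)519 (n = 3, adjusted p = 0.01), that is about 2.12-fold, 1.97-fold and 1.82-fold. Smaller rises were found in roDom heterozygotes (0.79 ± 0.23, adjusted p = 0.044), hh1 (0.64 ± 0.16, adjusted p = 0.021) and E(roDom)2033 homozygotes (0.59 ± 0.19, adjusted p = 0.04).

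The rise of Prosbeta1 in roX63 kept its call without each array in turn, with values from 0.71 to 1.24. The call was lost in roDom heterozygotes without either array, in E(roDom)2033 heterozygotes without replicate 1 (0.83), in E(roDom)2033 homozygotes without replicate 1 or 3, in hh1 without replicate 1, 2 or 4, and in Su(roDom)519 without replicate 1 or 2. With a fixed block for scanning day it passed in roX63 (1.04, adjusted p = 0.023), E(roDom)2033 heterozygotes (1.05, adjusted p = 0.028) and Su(roDom)519 (0.93, adjusted p = 0.048). It did not in roDom heterozygotes (1.07, adjusted p = 0.059), E(roDom)2033 homozygotes (0.66, adjusted p = 0.098) or hh1 (0.65, adjusted p = 0.1). Of its 10 nearest measured genes on the chromosome, 2 rose and 3 fell in roX63. The risers were the adjacent Rrp42 (0.63, adjusted p = 0.0054) and, next to that, EMC7 (0.61, adjusted p = 0.039). Rrp42 also rose in E(roDom)2033 homozygotes (0.65), their heterozygotes (0.82) and Su(roDom)519 (0.62). It rose in ato1 (0.49) as well, where Prosbeta1 did not, and did not pass in hh1 (0.24) or roDom heterozygotes (0.43). A link between these genes was not tested. The beta2 and beta5 genes Prosbeta2 and Prosbeta5, which carry the trypsin-like and chymotrypsin-like sites, passed in no condition. Their fitted values ran from -0.27 to 0.19 and from -0.50 to 0.26. Prosbeta4, without a catalytic site, fell in roX63, where the arrays were at -0.46, -0.25 and -0.98 (-0.62 ± 0.12, adjusted p = 0.002). It did not pass there without replicate 3 (-0.50), or with a fixed block for scanning day (-0.80, adjusted p = 0.079). Prosbeta3, Prosbeta6 and Prosbeta7 passed in no condition.

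Among the ATPases of the base, Rpt5 showed the largest change of any member. Its protein contributes a tail that docks into the alpha ring and takes part in gate opening. Its log2 ratio was 0.69, 0.94 and 1.45 on the ato1 arrays, 0.58, 1.25, 1.10 and 1.93 on the hh1 arrays, and 0.98, 1.20 and 1.12 on the Su(roDom)519 arrays. The E(roDom)2033 homozygotes were at 0.45, 0.45 and 0.63, and their heterozygotes at -0.17 and 0.01. The roDom homozygotes (-0.24, -0.08 and -0.28) and heterozygotes (-0.51 and -0.35) were below 0 on each array. The roX63 arrays were at -0.22, 0.23 and -0.53, and the posterior fragments at 0.14, -0.24, 0.01 and 0.04. The 10 arrays of ato1, hh1 and Su(roDom)519 ran from 0.58 to 1.93 and the other 17 from -0.53 to 0.63. These sets, which were picked by the same values, overlapped by 1 array on each side, hh1 replicate 1 and E(roDom)2033 homozygote replicate 3.

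Rpt5 rose by 1.30 ± 0.12 in hh1 (n = 4, adjusted p = 1.1e-06), by 1.08 ± 0.14 in ato1 (n = 3, adjusted p = 2.8e-05) and by 1.05 ± 0.14 in Su(roDom)519 (n = 3, adjusted p = 0.00041), or 2.46-fold, 2.11-fold and 2.06-fold. The homozygotes of E(roDom)2033 had a smaller rise of 0.46 ± 0.14 (adjusted p = 0.037), which did not pass without replicate 1 or 3, or with a fixed block for scanning day (0.47, adjusted p = 0.13). The rises in hh1, ato1 and Su(roDom)519 kept their calls without each array in turn, with lowest values of 1.09, 0.95 and 0.99. With a fixed block for scanning day they were 1.49 (adjusted p = 0.00026), 1.00 (adjusted p = 6.4e-05) and 0.89 (adjusted p = 0.02). Among the stop-furrow genotypes every array of ato1 and hh1 thus lay above every array of roDom. Of the extra-R8 genotypes every array of Su(roDom)519 lay above every array of roX63. These pairs of genotypes were not tested against each other outside the F-test. Rpt5 had 1 probe on the array. None of its 10 nearest measured genes, among them the lid gene Rpn9, passed in ato1, hh1 or Su(roDom)519, where their fitted values ran from -0.52 to 0.51.

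The other ATPase genes moved less. Rpt6 rose in hh1, with arrays at 0.44, 0.44, -0.19 and 1.14 (0.56 ± 0.15, adjusted p = 0.026), and in E(roDom)2033 homozygotes, at 0.56, 0.26 and 0.98 (0.53 ± 0.17, adjusted p = 0.041). In hh1 replicate 3 went the other way, and the call was lost without replicate 1, 2 or 4. That in the homozygotes was lost without replicate 1 or 3. With a fixed block for scanning day the values were 0.42 (adjusted p = 0.14) and 0.39 (adjusted p = 0.17). A second probe of Rpt6 passed in hh1 (0.48, adjusted p = 0.025) and E(roDom)2033 homozygotes (0.56, adjusted p = 0.013). Unlike the brightest probe, it also passed in roX63 (0.52, adjusted p = 0.019). A further probe passed in no condition, at 0.58, 0.70 and -0.02 in these groups (adjusted p = 0.18, 0.1 and 0.99). Rpt4 rose in both extra-R8 mutants, with arrays at 0.36, 0.46 and 0.54 in roX63 and at 0.28, 0.65 and 0.55 in Su(roDom)519. Its fitted rise was 0.42 ± 0.13 (adjusted p = 0.036) and 0.46 ± 0.13 (adjusted p = 0.046). Both calls were lost without any 1 of the arrays, although all 6 ratios lay above 0. With a fixed block for scanning day the values were 0.28 and 0.32 and did not pass. A second probe of Rpt4 passed in roX63 (0.52, adjusted p = 0.014), but not in Su(roDom)519 (0.32, adjusted p = 0.22) or in the F-test (adjusted p = 0.086). Rpt1, Rpt2 and Rpt3 passed in no condition. The arrays of Rpt1 disagreed widely, at 1.08, -0.31 and 0.85 in the E(roDom)2033 homozygotes.

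**Figure D4:**
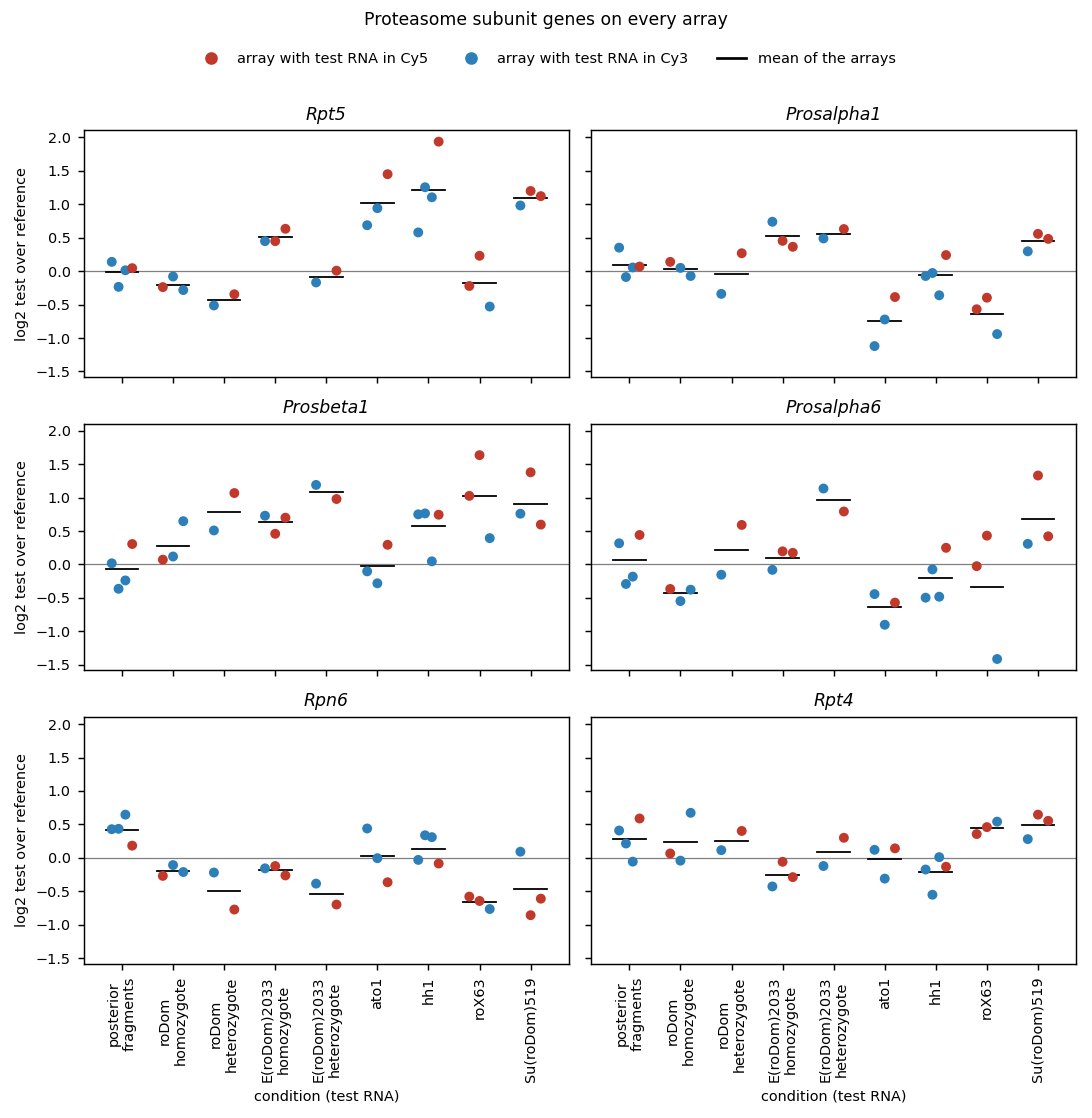
Log2 test over reference of Rpt5, Prosalpha1, Prosbeta1, Prosalpha6, Rpn6 and Rpt4 on each of the 27 arrays, by condition, with the test RNA in Cy5 (red) or in Cy3 (blue) and the mean of the arrays as a line. Rpt5 lies between 0.58 and 1.93 in ato1, hh1 and Su(roDom)519, and Prosalpha1 is below 0 on all 6 arrays of ato1 and roX63.

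Of the non-ATPase subunits of the base, Rpn2, a large scaffold protein to which Rpn13 binds, was the one that changed. It fell in hh1, with arrays at -0.26, -0.43, -0.45 and -0.76 (-0.46 ± 0.13, adjusted p = 0.035), and in roX63, at -0.15, -0.40 and -0.75 (-0.44 ± 0.15, adjusted p = 0.046). All 7 ratios were below 0. The call in hh1 was lost without replicate 2, 3 or 4 and that in roX63 without replicate 2 or 3, and with a fixed block for scanning day the values were -0.31 and -0.29 and did not pass. Rpn2 did not differ between the 9 conditions in the F-test (adjusted p = 0.098). The ubiquitin receptors Rpn10 and Rpn13, and Rpn1, a docking site for ubiquitin-like domains, passed in no condition. Rpn10 had the widest range of these, from -0.38 in ato1 to 0.51 in roDom heterozygotes.

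In the lid, Rpn6, which clamps the lid to the core particle, fell in 3 conditions. Its arrays were at -0.58, -0.64 and -0.76 in roX63, at -0.38 and -0.70 in E(roDom)2033 heterozygotes and at -0.22 and -0.77 in roDom heterozygotes. In posterior fragments all 4 ratios were above 0, at 0.43, 0.43, 0.65 and 0.18. It fell by 0.61 ± 0.12 in roX63 (adjusted p = 0.0017), by 0.54 ± 0.14 in E(roDom)2033 heterozygotes (adjusted p = 0.032) and by 0.50 ± 0.14 in roDom heterozygotes (adjusted p = 0.048). The fragments reached 0.35 ± 0.10 and did not pass (adjusted p = 0.063). The other probes of Rpn6 differed from it. In roX63 they were at -0.19 and -0.27 (adjusted p = 0.6 and 0.089), and in the fragments at 0.02 and -0.05. In E(roDom)2033 heterozygotes they were at -0.10 and -0.09 (adjusted p = 0.89 and 0.81). In roDom heterozygotes they were at -0.31 and 0.04 (adjusted p = 0.5 and 0.96). In roDom homozygotes they were at -0.46 and -0.42, the latter a fall that passed (adjusted p = 0.026), where the brightest probe was at -0.25. In ato1 they were at -0.39 and -0.24, where it was at -0.03, and neither of them passed the F-test. With a fixed block for scanning day the fall in roX63 was -0.53 (adjusted p = 0.3) and the F-test of Rpn6 gave adjusted p = 0.7. The fall in roX63 was -0.42 and not called without replicate 3. The falls in the heterozygotes were not called without either array, or with the mean over probes. That in E(roDom)2033 heterozygotes was -0.29 (adjusted p = 0.14) with homozygote replicates 2 and 3 read as heterozygotes.

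Rpn5, a lid subunit of the PCI family, had small falls with little spread. Its arrays were at -0.29, -0.16, -0.40 and -0.28 in posterior fragments, at -0.27, -0.36 and -0.23 in ato1 and at -0.37, -0.28 and -0.17 in roX63. The fitted values were -0.28 ± 0.07 (adjusted p = 0.021), -0.29 ± 0.08 (adjusted p = 0.024) and -0.27 ± 0.08 (adjusted p = 0.027), about 82.1% of the reference in the fragments. Each of the 10 ratios was below 0. The calls were lost without any 1 array in ato1 and roX63 and without replicate 1, 3 or 4 in the fragments, and with a fixed block for scanning day (-0.26, -0.27 and -0.26). The other 6 lid genes passed in no condition against the reference, among them Rpn11, whose fitted values ran from -0.31 to 0.39. A second, dimmer probe of Rpn9 did pass in E(roDom)2033 homozygotes (0.35, adjusted p = 0.044).

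Of the copies, Rpn12R passed. Its arrays were at 0.10, 0.23 and 0.50 in E(roDom)2033 homozygotes (0.27 ± 0.07, adjusted p = 0.021) and at 0.50 and 0.44 in the heterozygotes (0.47 ± 0.09, adjusted p = 0.0077). The signal of its probe exceeded the 95th percentile of the Adeno spots on 2 of 27 arrays, so these values rest on signal near background. The calls were lost without replicate 3 in the homozygotes and without replicate 1 in the heterozygotes, and under a fixed block for scanning day (0.23 and 0.53, adjusted p = 0.39 and 0.072). Its constitutive relative Rpn12 did not pass in either group. The brighter copies Prosalpha6T, Prosbeta5R1 and Rpt3R passed in no condition.

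A few members were outlying in several conditions. Measured from the median of the detected members, the gene farthest above was Rpt5 in ato1 (1.11 above), hh1 (1.19) and Su(roDom)519 (1.00), and Prosbeta1 in roX63 (0.99), E(roDom)2033 heterozygotes (1.02), roDom heterozygotes (0.77) and roDom homozygotes (0.32). In E(roDom)2033 homozygotes it was Prosalpha4 (0.47) and in posterior fragments Rpn6 (0.35). Farthest below were Prosalpha1 in ato1 (-0.67) and roX63 (-0.66), and Rpn2 in hh1 (-0.56), E(roDom)2033 homozygotes (-0.54) and roDom heterozygotes (-0.54). Rpn6 was farthest below in E(roDom)2033 heterozygotes (-0.60) and Su(roDom)519 (-0.45), Rpt1 in posterior fragments (-0.39) and Prosalpha6 in roDom homozygotes (-0.35). In the fragments and the roDom homozygotes none of these outlying genes passed (adjusted p from 0.063 to 0.55). Nor did Rpn2 in E(roDom)2033 homozygotes (adjusted p = 0.092) or roDom heterozygotes (adjusted p = 0.092), or Rpn6 in Su(roDom)519 (adjusted p = 0.054).

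The direct differences between test groups are free of the reference. Posterior fragments minus the 4 stop-furrow genotypes, weighted equally, compare tissue behind the furrow with discs in which the furrow halts. In it 3 of 46 members passed, beside 7.96% of all probes. Rpt5 was lower in the fragments by 0.60 ± 0.14 (adjusted p = 0.0082) and Prosalpha4 by 0.58 ± 0.14 (adjusted p = 0.008), and Rpn6 was higher by 0.43 ± 0.12 (adjusted p = 0.023). The other probes of Rpn6 were at 0.17 and 0.05 (adjusted p = 0.68 and 0.87), and with the mean over probes the call of Rpn6 was lost. The difference of Rpt5 averages over genotypes that were not alike, as the values above show. The scanning day that held both kinds of tissue had 3 fragment arrays, 1 of them with the test RNA in Cy5, and 1 stop-furrow array with it in Cy3. The differences there, not corrected for the dye, were -0.75 for Rpt5, -0.30 for Prosalpha4 and -0.02 for Rpn6. With a fixed block for scanning day they were -0.47, -0.23 and 0.07 and none passed. Without posterior fragments replicate 4 none of the 3 passed, Prosalpha4 did not without replicate 2 and Rpn6 did not without replicate 3. The median over the 32 subunits was -0.10, against -0.02 over all detected genes.

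Extra-R8 discs minus stop-furrow discs compare mutants that form extra founder cells with mutants whose furrow halts. Here 4 of 46 members passed, beside 8.09% of all probes. Higher in the extra-R8 discs were Prosbeta1 (0.53 ± 0.16, adjusted p = 0.047), Rpt4 (0.49 ± 0.11, adjusted p = 0.01) and the lid gene Rpn12 (0.38 ± 0.11, adjusted p = 0.035), and Rpn6 was lower (-0.42 ± 0.10, adjusted p = 0.014). The other probes of Rpn6 were at 0.14 and -0.06 (adjusted p = 0.67 and 0.79), and with the mean over probes the call of Rpn6 was lost. Rpn12 was at 0.57, 0.80 and -0.06 in roX63 and at 0.26, 0.63 and 0.17 in Su(roDom)519, against -0.72, -0.64 and 0.10 in ato1. It was at 0.15, 0.09 and 0.01 in roDom homozygotes, at -0.18, 0.23 and 0.02 in E(roDom)2033 homozygotes and at 0.32, -0.36, -0.36 and 0.28 in hh1. The extra-R8 arrays overlapped with those of each of the 4 genotypes. On the scanning day that held both kinds there were 2 arrays of each. Both extra-R8 arrays had the test RNA in Cy5, whereas of the stop-furrow arrays ato1 had it in Cy5 and the roDom homozygote in Cy3. The differences there, not corrected for the dye, were 1.03 for Prosbeta1, 0.15 for Rpt4, 0.66 for Rpn12 and -0.46 for Rpn6. The fitted Cy5 minus Cy3 values of these genes had the same signs, at 0.26, 0.17, 0.38 and -0.31. As a fixed block scanning day gave 0.59, 0.27, 0.30 and -0.39, and none passed. With E(roDom)2033 homozygote replicates 2 and 3 read as heterozygotes, Prosbeta1 (0.47, adjusted p = 0.17), Rpn12 (0.38, adjusted p = 0.089) and Rpn6 (-0.38, adjusted p = 0.086) did not pass. The call of Rpt4 was lost without roX63 replicate 3 and that of Rpn6 without roX63 replicate 3 or Su(roDom)519 replicate 2, whereas those of Prosbeta1 and Rpn12 held in 8 and 10 of 19 runs with 1 array left out. The subunit median was -0.10, against -0.01 over all detected genes.

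The other genes of the ubiquitin and proteasome pathway were read from a list of 22, all with a probe. They were chosen with earlier results of these data known, so their shares are not a test of the pathway. In the F-test 8 of them (36.4%) passed, beside 13.8% of all probes: Uba1, the ubiquitin-activating enzyme, RpS27A, a ubiquitin fusion gene, Pomp, the chaperone of core assembly, the deubiquitinating enzymes Usp14 and Uch-L5, CG8858, a relative of yeast Ecm29, the shuttle protein gene rngo, and maf-S, partner of the transcription factor Cnc. In roX63 8 of the 22 changed, 3 higher and 5 lower, beside 13.5% of all probes, 6.13% higher and 7.41% lower. CG8858 was lowest, at -1.73, -1.08 and -1.59 on the 3 arrays (-1.47 ± 0.19, adjusted p = 5.9e-05). The list rose and fell within the same discs, since maf-S was at 0.80, 0.97 and 0.75 (0.82 ± 0.12, adjusted p = 0.0002) and RpS27A at 0.44, 0.54 and 1.32 (0.78 ± 0.20, adjusted p = 0.011). Pomp rose in roX63 (0.42 ± 0.12), E(roDom)2033 heterozygotes (0.52 ± 0.15) and Su(roDom)519 (0.59 ± 0.12, adjusted p = 0.0078).

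Uba1 fell in roX63 (-0.55 ± 0.12), Su(roDom)519 (-0.59 ± 0.12) and E(roDom)2033 heterozygotes (-0.62 ± 0.15). In Su(roDom)519 4 of the 22 changed, beside 4.70% of all probes. They included Sem1, a small lid subunit outside the naming rule, which rose to 0.43, 0.96 and 1.27 (0.85 ± 0.19, adjusted p = 0.013), and rngo, which fell. In ato1 4 of the 22 changed, beside 10.7% of all probes, maf-S higher (0.50 ± 0.12) and Rad23, another ubiquitin shuttle, Uch-L5 and Usp14 lower. In hh1 2 of the 22 changed, beside 5.94% of all probes: both polyubiquitin genes rose, Ubi-p5E (0.61 ± 0.14, adjusted p = 0.011) and Ubi-p63E (0.56 ± 0.16, adjusted p = 0.036). In E(roDom)2033 homozygotes 3 of the 22 (13.6%) changed, beside 13.7% of all probes in either direction and 7.31% higher. These rose: Ubi-p5E, Usp14 and REG, an activator of the core particle (0.63 ± 0.19, adjusted p = 0.029). None of the 22 passed in posterior fragments, roDom homozygotes or roDom heterozygotes in limma. There 4, 4 and 5 of them had an unadjusted p under 0.05, beside 2477, 3185 and 2960 of all 16492 probes. The transcription factor gene cnc itself passed in no condition. Leaving out arrays and scanning day were not run for these 22 genes.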

How the data were processed

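RNA of 27 test samples was hybridised against a common reference on spotted 2-colour arrays. Per the file headers, the deposited GenePix files give each spot's mean pixel intensity and local background in both channels, the percent of saturated pixels, and a score that flags bad spots. The deposited value table of the authors holds log2 ratios. Set against the scanner values its columns ran as reference over test (r from -0.82 to -0.98), with column medians from -0.16 to 0.15, and how it was normalised or centred is not given in the sources used here. Its column for hh1 replicate 2 (r = -0.14) matched the sign-turned Su(roDom)519 replicate 3 (r = 0.94) and was left out. The table served as an alternative only.

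Spots scoring -75 or below were dropped, background was corrected by normexp (offset 50), and ratios were normalised by global loess with control spots at weight 0 (limma 3.58.1, R 4.3.3). Arrays were turned to test over reference by the labelled dye, and spots of a probe were averaged. No member spot held saturated pixels. Of 16498 probes, 12714 were named by locus tag, 20 by symbol and 2752 by synonym (release 6 gene table), and 1012 stayed unnamed. One limma fit of 9 group means and a dye term gave two-sided moderated tests with Benjamini-Hochberg adjustment over 16492 probes. It was tested on simulated data. The members, the 22 pathway genes and the marker lists were chosen with earlier results of these data known. Every member passing in the F-test or a comparison is named, with the member farthest above and below the median of the detected members in each condition. Alternatives were print-tip loess, no dye term, no background subtraction, a filter on dim probes, a block for scanning day (9 days) or array series, only the 7th series, the value table, the mean over probes, E(roDom)2033 read by its characteristics, and runs without each array. Chosen after seeing the data were the array turned by its header, the Adeno limit, the dye test, the median of 32 subunits, and the neighbouring genes. Genome positions served only to find neighbours.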

Additional observations from a re-analysis of the deposited data

Results flagged for a closer look

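Among 30 member groups of 4 arrays that could be tested, 1 had an array far from the others: Prosbeta1 in hh1, where replicate 3 lay at 0.05 and the other 3 arrays between 0.74 and 0.76, so that the gap took 0.973 of the whole range. Chance gives about 1 such group in 20.

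The effects of the conditions on 8 members differed from each other in the moderated F-test of limma, with adjusted p = 5.7e-06 for Rpt5, 7.7e-05 for Prosalpha1, 0.0037 for Rpn6, 0.019 for Prosalpha6, 0.03 for Prosbeta1, 0.034 for Rpt4, 0.037 for Rpn5 and 0.047 for Rpn12R. Rpt5, Prosalpha1 and Rpn6 passed in each of 27 runs with 1 array left out, Prosalpha6 in 26, Prosbeta1 in 22, Rpt4 in 17, Rpn5 in 11 and Rpn12R in 5.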

How the results depend on the processing

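Counts of members past the threshold depended on the processing, and the cause was not tested. In the F-test 8 members passed, and 5 with the 7th array series alone, with the value table and with E(roDom)2033 homozygote replicates 2 and 3 read as heterozygotes. In posterior fragments 1 became 2 without background subtraction, and 0 with print-tip loess, the 7th series alone, array series as a block, scanning day as a fixed or random block, or the value table. In roDom homozygotes 0 became 1 with the mean over probes. In roDom heterozygotes 2 became 0 without the dye term or with array series or scanning day as a fixed block, and 1 with print-tip loess, scanning day as a random block or the mean over probes. In E(roDom)2033 homozygotes 6 became 0 with scanning day as a fixed block, 3 as a random block, and 1 with the value table or the other reading of the labels. In the heterozygotes 5 became 2 without the dye term or with array series as a block, and 3 with scanning day as a fixed block. In ato1 3 became 5 with print-tip loess and 7 with scanning day as a fixed block. In hh1 4 became 2 without the dye term or with the value table, and 1 with scanning day as a fixed block. In roX63 7 became 3 with array series as a block, and 1 and 4 with scanning day as a fixed and a random block. In Su(roDom)519 3 became 1 with array series as a block. Posterior fragments minus stop-furrow discs went from 3 to 0 with scanning day as a fixed block or the value table, and to 1 with it as a random block. Extra-R8 minus stop-furrow discs went from 4 to 2 with print-tip loess, 1 with the 7th series alone or the other reading of the labels, and 0 with scanning day as a fixed or random block (correlation 0.238).

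With 1 array left out the counts ran from 4 to 9 in the F-test, 0 to 1 in posterior fragments, 0 to 0 in both roDom groups, 1 to 11 in E(roDom)2033 homozygotes and 0 to 3 in their heterozygotes. They ran from 2 to 3 in ato1, 1 to 7 in hh1, 2 to 6 in roX63, 1 to 2 in Su(roDom)519, 0 to 5 in posterior fragments minus stop-furrow discs and 1 to 5 in extra-R8 minus stop-furrow discs. The F-test had 4 without Su(roDom)519 replicate 1 or posterior fragments replicate 4. None of the 38 called values of single members changed sign under the alternatives run. Of the 38, 38 kept their call with the filter on dim probes, 27 without the dye term, 21 with scanning day as a random block, 17 with array series as a block and 8 with scanning day as a fixed block. Apart from runs without an array, Rpt5 in ato1, hh1 and Su(roDom)519, Prosalpha1 in ato1 and Prosbeta1 in E(roDom)2033 heterozygotes and roX63 kept theirs under all 10 or 11 settings run. Of 180 recomputed medians of gene classes 167 moved by less than 1 SD. The value table tested 32 of the 46 members. No paired analysis was possible because replicate numbers were given in order and pair no arrays. Signal near background limits the copies, and 2 to 4 arrays limit every condition.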
